A study of Mus musculus with 4 samples.

Results

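The 10 genes described here make up the core of the class II antigen presentation machinery of the mouse. They were chosen by name as a gene family and matched by symbol, and all 10 of 10 were found among the 32285 genes counted. H2-Aa, H2-Ab1 and H2-Eb1 encode chains of the classical class II molecules, and their summed counts are called the classical sum below. Cd74 encodes the invariant chain, Ciita the transcriptional coactivator of the family, H2-DMa, H2-DMb1 and H2-DMb2 the peptide exchange factor H2-M, and H2-Oa and H2-Ob its inhibitor H2-O. Cells were taken on day 3 from brains of wild-type C57Bl/6 mice and sorted for CD45, a surface protein of leukocytes, for droplet-based single-cell RNA sequencing of transcript 3′ ends. The 4 groups were aged mice (18 to 20 months) resuscitated from a cardiac arrest (CA) that potassium chloride had induced, aged mice after sham surgery, young mice (3 to 6 months) given the same arrest, and young mice after sham surgery. Each group was 1 library that pooled 3 mice which cannot be told apart, so there is no replicate spread, no test was possible, and every interval given is a 95% interval for counting error only.

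Class II molecules carry peptides from endocytosed proteins to the cell surface, where CD4 T cells read them. The invariant chain fills the peptide groove of new class II molecules until proteases trim it, H2-M swaps the remaining fragment for antigenic peptide, and H2-O, best known in B cells, holds H2-M back. Transcription of the classical chains and Cd74 depends on Ciita, which is recruited to promoters through factors bound at X and Y boxes. In the healthy brain, dendritic cells, B cells and some macrophages of the borders are known for high class II, while microglia hold little of it. C57Bl/6 mice do not make the alpha chain that partners the H2-Eb1 product.

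The genes lie together in the genome apart from Cd74 and Ciita. On GRCm38, 8 of 10 sat within 224 kb of the class II region, at chr17:34092340-34316674, with H2-Oa at one end and H2-Eb1 at the other. Ciita was annotated at chr16:10480059-10528418. Promoter windows from RefSeq on GRCm38.p6, each reaching from 250 bases before to 50 after the start of transcription, were at hand for 7 members and were searched on both strands for the Y box core GATTGG and the X box core (AG, any 2 bases, AC, any 3 bases, TG). Of all 32851 such windows, 16.1% held the first, 14.8% the second and 2.54% both. H2-Eb1, H2-Ob, H2-DMb1 and H2-Oa held both cores, H2-Aa and H2-DMb2 only GATTGG, and of the H2-DMa windows, 1 held GATTGG and the other neither. The stretches below are shown because the spacing of the exact matches in H2-Eb1 and H2-Ob differed from that in H2-Oa. The capitals mark the cores, and positions count back from the start of transcription.
H2-Eb1: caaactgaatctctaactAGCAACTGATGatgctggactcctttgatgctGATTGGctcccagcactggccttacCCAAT
H2-Ob: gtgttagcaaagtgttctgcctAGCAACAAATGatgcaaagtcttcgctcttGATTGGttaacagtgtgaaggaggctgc
H2-Oa: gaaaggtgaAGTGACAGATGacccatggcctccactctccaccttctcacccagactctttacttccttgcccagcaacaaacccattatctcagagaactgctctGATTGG
H2-Aa: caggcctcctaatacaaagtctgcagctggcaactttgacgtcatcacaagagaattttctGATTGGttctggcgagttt
H2-DMb2: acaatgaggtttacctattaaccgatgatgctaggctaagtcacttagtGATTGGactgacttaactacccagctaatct

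The X and Y cores began 32 bases apart in H2-Eb1 (chr17:34305757-34305836, plus strand) and 30 bases apart in H2-Ob (chr17:34238795-34238874, plus strand). In H2-Oa (chr17:34092229-34092340, plus strand) the exact matches began 97 bases apart. The H2-Oa stretch also holds agcaacaaacc closer to GATTGG, which departs from the X core pattern only in its final TG. The spacing in H2-Oa thus depends on the pattern, and near matches were not searched for in any window. The H2-Eb1 stretch ends in part of a copy of GATTGG on the other strand. The H2-Aa stretch (chr17:34287854-34287933, minus strand) and the H2-DMb2 stretch (chr17:34145109-34145188, plus strand) held the Y core at -49 and -91. A match of letters is a description and not evidence of binding.

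Kept cells numbered 5611 in aged CA, 7083 in aged sham, 9310 in young CA and 8120 in young sham. The aged sham library stood apart: its median depth was 3243 unique molecular identifiers (UMIs) per cell, against 10254 in aged CA, 9553.5 in young CA and 5939 in young sham. It also held the most haemoglobin transcript, 944 CPM (UMIs of a gene or gene set scaled to a common total of all UMIs), against 70.6 CPM in aged CA and at most 3.03 CPM in the young libraries. Pairs of libraries shared 15 to 32 cell barcodes. Cells were classed from marker genes that include no class II gene, first by a gate that counts detected markers. It called 4624, 5570, 8476 and 7601 cells microglia in aged CA, aged sham, young CA and young sham, and these detected a median of 90% to 100% of 10 microglial markers. It left 484, 1008, 386 and 276 cells unclassed in the same order. Cells near the limits of the gate numbered 333, 568, 301 and 179 among classed cells and 249, 389, 199 and 127 among unclassed ones. Because the unclassed cells were rich in class II UMIs, an assignment of every cell to its most likely class by whole profile, again without the class II genes, was added after the data were seen. It called 4897, 5791, 8505 and 7653 cells microglia, and 117, 102, 102 and 134 cells border-associated macrophages, where the gate had called 41, 7, 29 and 36. Microglia that the gate had named and the likelihood placed among border-associated macrophages numbered 21, 57, 23 and 38.

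Over all kept cells, the classical sum stood at 302 CPM in aged CA, against 597 CPM in aged sham, and at 621 CPM in young CA, against 416 CPM in young sham. The library totals of CA and sham thus differed in opposite directions in the 2 ages, and this difference between ages was not tested. Cd74 differed between CA and sham in the same directions, with 414 CPM in aged CA, against 491 CPM in aged sham, and 495 CPM in young CA, against 349 CPM in young sham. In these totals, fewer cells of a class and less transcript per cell cannot be told apart.

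The classical transcripts came from different cells in each library. By likelihood, dendritic cells held 45.1% of the classical UMIs in aged CA, 6.31% in aged sham, 59.5% in young CA and 19.9% in young sham. Border-associated macrophages held 19.4%, 49.8%, 8.43% and 53.3% in the same order. Under this assignment, macrophages thus led in both sham libraries and dendritic cells in both CA libraries. Dendritic cells themselves numbered 21 in aged CA, 17 in aged sham, 109 in young CA and 12 in young sham, and monocytes or macrophages 81, 31, 371 and 13. Monocytes or macrophages held 25.5% of the classical UMIs in young CA and 4.40% to 5.36% in the other libraries. Microglia, 5.24% to 28% of this pool, were by far the most numerous cells. By the gate, the microglial share was 20.3% in aged CA, 58.4% in aged sham, 15.1% in young CA and 47.3% in young sham. The leading class differed there as well. Cells that the gate left unclassed held 41.2% in aged CA, ahead of dendritic cells at 26.0%. Border-associated macrophages held 0% in aged sham by the gate.

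Most UMIs of H2-DMa and the H2-O genes lay in microglia, the class with most cells. By likelihood, microglia made up 87.3% of kept cells in aged CA, 81.8% in aged sham, 91.4% in young CA and 94.2% in young sham. Those figures are shares of cells, while the values below are shares of a gene's UMIs. Setting them side by side cannot decide whether the genes are particular to microglia. Microglia held 89.1%, 86.4%, 85.6% and 90.01% of H2-DMa UMIs in aged CA, aged sham, young CA and young sham. They held 85.5%, 84.2%, 91.1% and 93.6% of H2-Ob UMIs and 88.7% to 97.1% of H2-Oa UMIs. H2-DMb2 differed, with 40.8% of its UMIs in microglia in aged CA, 69.1% in aged sham, 78.3% in young CA and 80.4% in young sham. B or plasma cells held 24.6% of H2-DMb2 UMIs in aged CA, 22% in aged sham and 3.97% in young CA. Dendritic cells held 29.3%, 2.15% and 12.3% of them in the same order. Of Cd74, microglia held 48.2% of its UMIs in aged CA, 30.6% in aged sham, 11.3% in young CA and 21.6% in young sham.

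**Figure D1:**
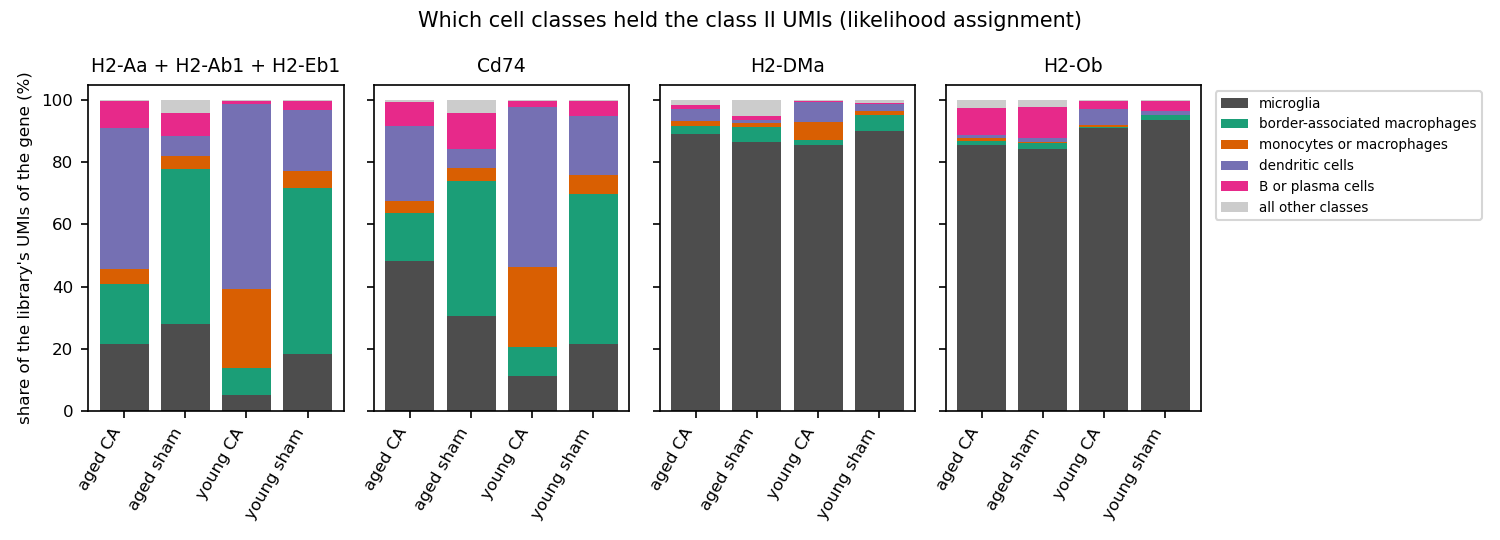
Share of each library's UMIs (vertical axis, percent) held by each cell class under the likelihood assignment, for the classical sum, Cd74, H2-DMa and H2-Ob, with 1 stacked bar per library. Classical UMIs lay mostly outside microglia, with dendritic cells at 45.1% in aged CA and 59.5% in young CA. Microglia held 85.6% to 90.01% of H2-DMa and made up 81.8% to 94.2% of kept cells.

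Dendritic cells, the professional presenters of antigen, had the highest classical level in every library, although in aged sham the interval overlapped that of border-associated macrophages. The classical sum, as CPM of all UMIs of the class, was 21985 CPM (21527 to 22451) in aged CA, 15606 (14850 to 16389) in aged sham, 18866 (18675 to 19058) in young CA and 25637 (24960 to 26328) in young sham under the likelihood assignment. The CA to sham ratio was 1.41 in aged mice and 0.736 in young mice. By the gate the aged ratio was 0.765, with 12 cells in aged CA and 2 in aged sham, so the direction in aged dendritic cells turned with the assignment. Cd74 in dendritic cells was 16179 CPM in aged CA, 12504 in aged sham, 13004 in young CA and 20562 in young sham. Ciita, under 6 CPM in microglia of every library, stood at 191, 185, 310 and 477 CPM in the same order.

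B or plasma cells, which numbered 41, 49, 18 and 21 by likelihood in aged CA, aged sham, young CA and young sham, had lower classical levels than dendritic cells. The classical sum was 4320 CPM (4115 to 4531) in aged CA and 4093 (3909 to 4284) in aged sham, intervals that overlap, and 5943 (5514 to 6396) in young CA, against 4205 (3905 to 4523) in young sham. Their H2-M beta chain differed from that of the other presenters. H2-DMb2 UMIs per H2-DMb1 UMI came to 2.94 (1.64 to 5.55) in aged CA, 2.83 (1.83 to 4.48) in aged sham, 2.67 (1.34 to 5.69) in young CA and 3.15 (1.66 to 6.41) in young sham. In dendritic cells this quotient was 0.292 in aged CA, 0.107 in aged sham, 0.0765 in young CA and 0.0946 in young sham, and in microglia at most 0.0955. The B cell intervals lay above those of dendritic cells and microglia in all 4 libraries. Of the 90-base windows of the H2-DMb1 transcript, 15.9% also occur in H2-DMb2, and how such reads were counted is not given in the sources used here. H2-Ob, in B cells part of the inhibitor for which they are known, reached 144, 205, 359 and 249 CPM there, against 10.4, 24.8, 16.7 and 22 CPM in microglia of the same libraries.

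**Figure D2:**
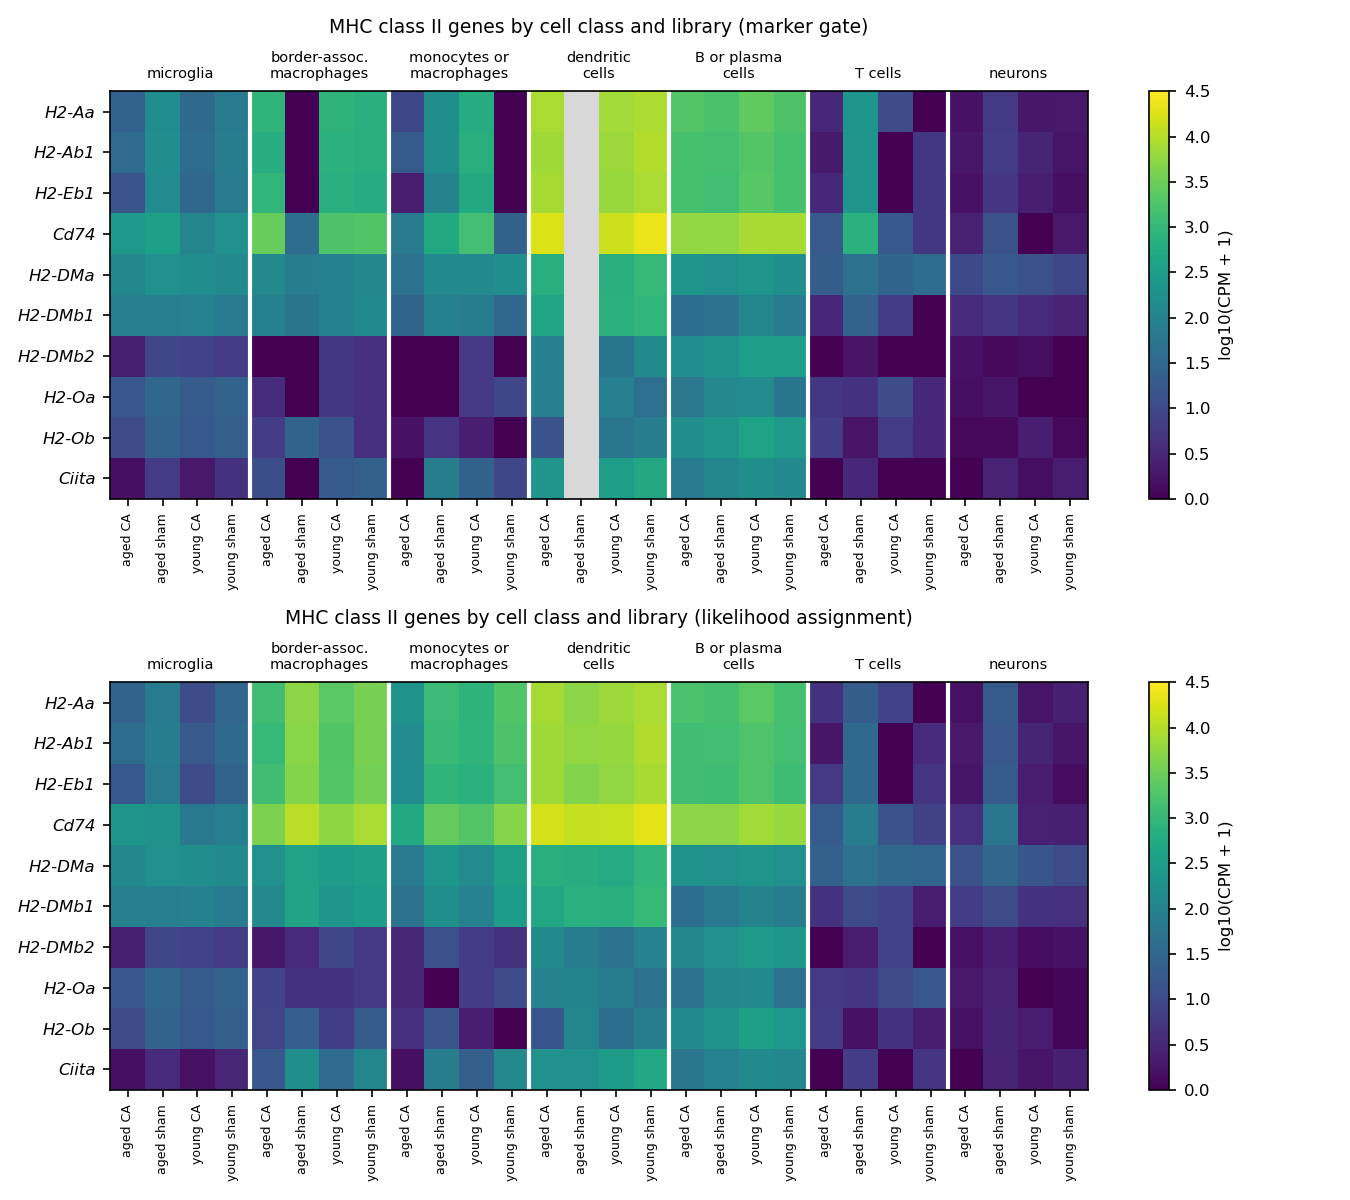
Level of each of the 10 genes (rows) in 7 cell classes and 4 libraries (columns) as log10(CPM + 1) in colour, above by the marker gate and below by the likelihood assignment. Grey marks a class with under 5 cells, which is aged sham dendritic cells by the gate (2 cells); dendritic cells are brightest for the classical genes and Cd74, and H2-DMb2 is brightest in B or plasma cells.

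Border-associated macrophages gave the sharpest conflict between the assignments. Under the likelihood, the classical sum was 3686 CPM (3569 to 3806) in aged CA, against 14971 (14711 to 15235) in aged sham, a ratio of 0.246 (0.237 to 0.255). It was 6124 CPM (5960 to 6291) in young CA, against 11145 (10964 to 11327) in young sham, a ratio of 0.549 (0.532 to 0.567). Against the young libraries, aged sham stood at 1.34 times young sham and aged CA at 0.602 times young CA. All 3 classical chains shared these directions. H2-Aa was 1324 CPM in aged CA and 5184 CPM in aged sham, H2-Ab1 1032 and 5073 CPM, and H2-Eb1 1330 and 4714 CPM.

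Cd74, Ciita, H2-DMa and H2-DMb1 were also lower in CA than in sham in these macrophages of aged mice. Cd74 was 4029 CPM in aged CA, against 10684 CPM in aged sham, and Ciita 15.7 CPM (16 UMIs), against 172 CPM (145 UMIs). H2-DMa was 177 CPM in aged CA, against 397 CPM in aged sham, and H2-DMb1 133 CPM, against 429 CPM. Of the members with enough counts to compare (at least 10 CPM in 1 of the 2 libraries and 50 UMIs over both), 7 of 7 were at least 2-fold lower in aged CA than in aged sham, where 8.96% of 5647 genes were lower and 5.81% higher. Their median log2 ratio was -1.83, and that of all genes -0.02. In young mice 1 of 7, Ciita, was at least 2-fold lower in CA, where 2.55% of 6272 genes were lower and 1.95% higher, and the median was -0.76. No member was at least 2-fold higher in either comparison. Between ages, 0 of 7 passed 2-fold in aged sham against young sham, where 1.82% of genes were higher and 1.9% lower, and 0 of 6 in aged CA against young CA, where 2.8% were higher and 5.01% lower.

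The marker gate turned these directions round. It named 7 border-associated macrophages in aged sham, with 0 classical UMIs, against 41 cells with 2427 CPM in aged CA, a ratio of at least 61.4 when 3 UMIs over the aged sham class are taken as the floor. In young mice it gave 2276 CPM in CA and 2005 CPM in sham, a ratio of 1.14. The gate requires border macrophage markers to exceed microglial markers by a margin, and the cells it left unclassed carried 1996 CPM of the classical sum in aged sham.

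Monocytes or macrophages, called by likelihood, had 499 CPM of the classical sum in aged CA, against 3183 CPM in aged sham, and 2497 CPM in young CA, against 5107 CPM in young sham. The ratios were 0.157 (0.144 to 0.171) in aged and 0.489 (0.463 to 0.516) in young mice. The sham values rest on 31 aged and 13 young cells, and the young CA value on 371. By the gate, 13 aged sham cells had 432 CPM and 5 young sham cells had 0 UMIs, so the young direction could not be read there.

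In microglia named by the gate, all 3 classical chains were lower in CA than in sham at both ages. H2-Aa was 24.7 CPM in aged CA, 153 in aged sham, 35.1 in young CA and 72.9 in young sham. H2-Ab1 was 36.9, 157, 38.3 and 80.1 CPM in the same order. H2-Eb1 was 14.5, 146, 32.6 and 71.3 CPM. Aged sham was highest for each chain, and aged CA was lowest.

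The classical sum in microglia was 76.1 CPM (73.7 to 78.5) in aged CA, against 456 CPM (449 to 464) in aged sham, a ratio of 0.167 (0.161 to 0.173). It was 106 CPM (104 to 108) in young CA, against 224 CPM (220 to 228) in young sham, a ratio of 0.473 (0.460 to 0.485). Aged sham stood at 2.03 times young sham, and aged CA at 0.718 times young CA. Under the likelihood assignment the sums were 79.6 CPM in aged CA, 220 CPM in aged sham, 37.3 CPM in young CA and 87.6 CPM in young sham. The CA to sham ratios were then 0.362 in aged and 0.426 in young mice, and aged CA was 2.14 times young CA, the opposite direction to the gate. Thinned to 2000 UMIs per cell, the gate's ratio of aged sham to young sham was 2.90. The ratio of CA to sham kept its direction at each age under the alternatives tried.

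Set against all genes, the family's share of 2-fold differences in microglia was as follows. Of 8 members with enough counts, 4 (H2-Aa, H2-Ab1, H2-Eb1 and H2-Ob) were at least 2-fold lower in aged CA than in aged sham and 0 higher, where 10.5% of 9861 genes were lower and 6.17% higher. In young CA against young sham, 3 (the classical chains) were lower and 0 higher, where 3.1% of 9562 genes were lower and 6.6% higher. In aged sham against young sham, 2 (H2-Aa and H2-Eb1) were higher and 0 lower, where 4.17% of 9572 genes were higher and 0.178% lower. In aged CA against young CA, 1 (Cd74) was higher and 1 (H2-Eb1) lower, where 2.3% of 9409 genes were higher and 3.38% lower. The members' median log2 ratios were -1.06, -0.62, 0.65 and -0.30 in these comparisons, and those of all genes 0.03, -0.07, -0.05 and 0.02. Ciita and H2-DMb2 were too low to be compared by this rule.

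Under the likelihood assignment, 4 of 8 members (H2-Aa, H2-Ab1, H2-Eb1 and H2-Ob) were again at least 2-fold lower in aged CA than in aged sham and 0 higher, where 10.2% of genes were lower and 6.39% higher. In young CA against young sham, 2 (H2-Aa and H2-Eb1) were lower and 0 higher, where 3.03% of genes were lower and 6.37% higher. In aged sham against young sham, 4 (the classical chains and Cd74) were higher and 0 lower, where 3.82% of genes were higher and 0.189% lower. In aged CA against young CA, 3 (H2-Aa, H2-Ab1 and Cd74) were higher and 0 lower, where 2.36% of genes were higher and 3.35% lower. The 2 CA comparisons and the 2 age comparisons use the same 4 libraries.

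Few microglia carried most of the classical transcript. Among gate microglia of at least 2000 UMIs, each thinned to 2000, cells with at least 1 classical UMI made up 6.04% (272 of 4506) in aged CA, 8.34% (321 of 3847) in aged sham, 3.71% (298 of 8037) in young CA and 4.11% (283 of 6885) in young sham. Without thinning the shares were 19.9%, 16.0%, 13.7% and 10.1% in the same order. T cells with a classical UMI numbered 0 of 102, 5 of 145 (3.45%), 0 of 22 and 1 of 33, so the young microglial shares were not told apart from background by this measure. The microglia had median depths of 10628.5, 3503, 9371 and 5761 UMIs. Cells with 3 or more thinned classical UMIs numbered 46 in aged CA, 135 in aged sham, 40 in young CA and 69 in young sham. These few held 51.8% of the classical UMIs in aged CA, 94.5% in aged sham, 80.9% in young CA and 90.2% in young sham.

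The cells with 3 or more classical UMIs also carried markers of other myeloid cells, whose part in the result was not tested. The summed level of 8 border macrophage markers in them was 63.0 CPM in aged CA, 1429 in aged sham, 885 in young CA and 896 in young sham. In microglia without classical UMIs it was 6.32, 14.5, 21.0 and 17.5 CPM. The 9 monocyte markers summed to 351, 683, 3105 and 605 CPM in the cells with 3 or more, against 75.4, 29.1, 253 and 14.1 CPM in those with 0. Single border markers differed in the aged CA cells with 3 or more. Mrc1 was 29.1 CPM, against 1.53 CPM in the aged CA cells with 0, and Ms4a7 30.7 CPM, against 0.891 CPM. Cd163 was at 0, against 0.269 CPM, and at 3.82 to 35.0 CPM in the cells with 3 or more of the other libraries. Microglial P2ry12 stood at 813, 984, 574 and 1324 CPM in the cells with 3 or more, below 992, 2604, 1418 and 2833 CPM in those with 0. The likelihood assignment placed 5 of 46, 57 of 135, 24 of 40 and 32 of 69 of them outside microglia.

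**Figure D3:**
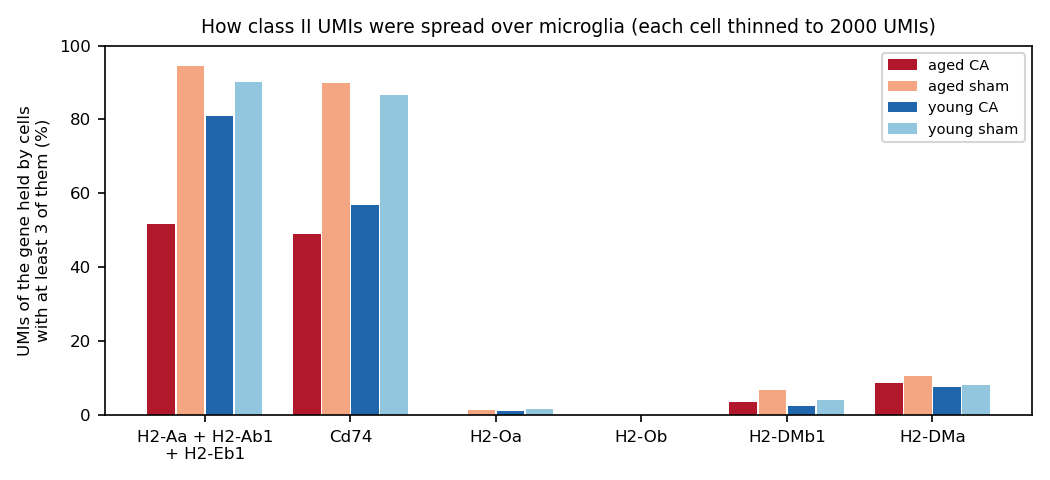
Share of a gene's UMIs (vertical axis, percent) held by gate microglia with at least 3 UMIs of it, each cell thinned to 2000 UMIs, with 1 bar per library. Classical transcript was held mostly by such cells in aged sham (94.5%) and young sham (90.2%), and less in aged CA (51.8%), while H2-DMa stayed at 7.68% to 10.5%.

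The level of Cd74 over all gate microglia was 246 CPM in aged CA, against 352 CPM in aged sham, and 112 CPM in young CA, against 191 CPM in young sham, ratios of 0.697 and 0.584 in the direction of the classical chains. In microglia with 0 thinned classical UMIs, which were 94.0%, 91.7%, 96.3% and 95.9% of the thinned cells in aged CA, aged sham, young CA and young sham, the order was another. There Cd74 was 162 CPM (158 to 166) in aged CA, against 29.4 CPM (27.5 to 31.5) in aged sham, a ratio of 5.51 (5.13 to 5.92). It was 43.5 CPM (42.1 to 44.9) in young CA, against 21.7 CPM (20.5 to 23.0) in young sham, a ratio of 2.002 (1.87 to 2.14). In the same cells before thinning, H2-Ab1 was 16.0 CPM in aged CA, against 5.96 CPM in aged sham. H2-Aa was 3.96 CPM, against 2.42 CPM, and H2-Eb1 2.69 CPM, against 1.82 CPM. Because the cells were selected for 0 thinned classical UMIs, these values come only from UMIs that thinning left out. They depend on depth and cannot show whether the classical chains differed between aged CA and aged sham there. Under the likelihood assignment, over all microglia, the Cd74 ratios were 1.23 (1.20 to 1.27) in aged and 0.743 (0.715 to 0.772) in young mice. The direction for Cd74 in aged microglia thus depended on which cells with high class II were counted in.

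The spread of Cd74 over cells differed as well. At 2000 UMIs per cell, Cd74 was found in 23.0% of gate microglia in aged CA (21.8 to 24.3), 10.7% in aged sham (9.75 to 11.7), 8.14% in young CA (7.55 to 8.76) and 4.81% in young sham (4.31 to 5.34). In these libraries CA exceeded sham at both ages and aged exceeded young in both treatments. The intervals do not overlap, but they cover counting error only and not the spread between mice. Without thinning the shares were 52.0%, 19.2%, 27.6% and 10.9%. In T cells, which should lack the gene, 3.92% (4 of 102) had a Cd74 UMI in aged CA, 8.28% (12 of 145) in aged sham, and 0 of 22 and 0 of 33 in young CA and young sham, where a count of 0 allows up to 13.6% and 9.09%. In neurons the shares were 0 of 131, 5.93% (8 of 135), 0 of 79 and 0 of 96, where the counts of 0 allow up to 2.29%, 3.80% and 3.12%. The classical UMIs of aged sham T cells were held by few cells, 936 of 951 UMIs by 6 of 148. T cells had median depths of 8923.5, 8758.5, 8508 and 9869 UMIs, and neurons 28408, 11151, 22432 and 33730. The aged sham microglial share of 10.7% lay within the T cell interval (4.35% to 14.0%), so it was not told apart from background at this depth. The aged CA share of 23.0% lay above the T cell interval of its library (1.08% to 9.74%), while both young shares lay above what the neurons allow but within what the T cells allow, so T cells do not tell them apart from background.

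Cells with Cd74 also differed in whether they carried classical chains. Among thinned microglia with a Cd74 UMI, 13.7% (142 of 1037) had a classical UMI in aged CA, 44.9% (185 of 412) in aged sham, 10.1% (66 of 654) in young CA and 30.2% (100 of 331) in young sham. Among those without Cd74 the shares were 3.75%, 3.96%, 3.14% and 2.79%. At 2000 UMIs per cell a classical transcript can be missed, so cells with 0 classical UMIs are not shown to lack it. Cells with 3 or more Cd74 UMIs numbered 164, 147, 49 and 91 and held 48.9%, 89.8%, 56.8% and 86.7% of its UMIs in aged CA, aged sham, young CA and young sham.

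**Figure D4:**
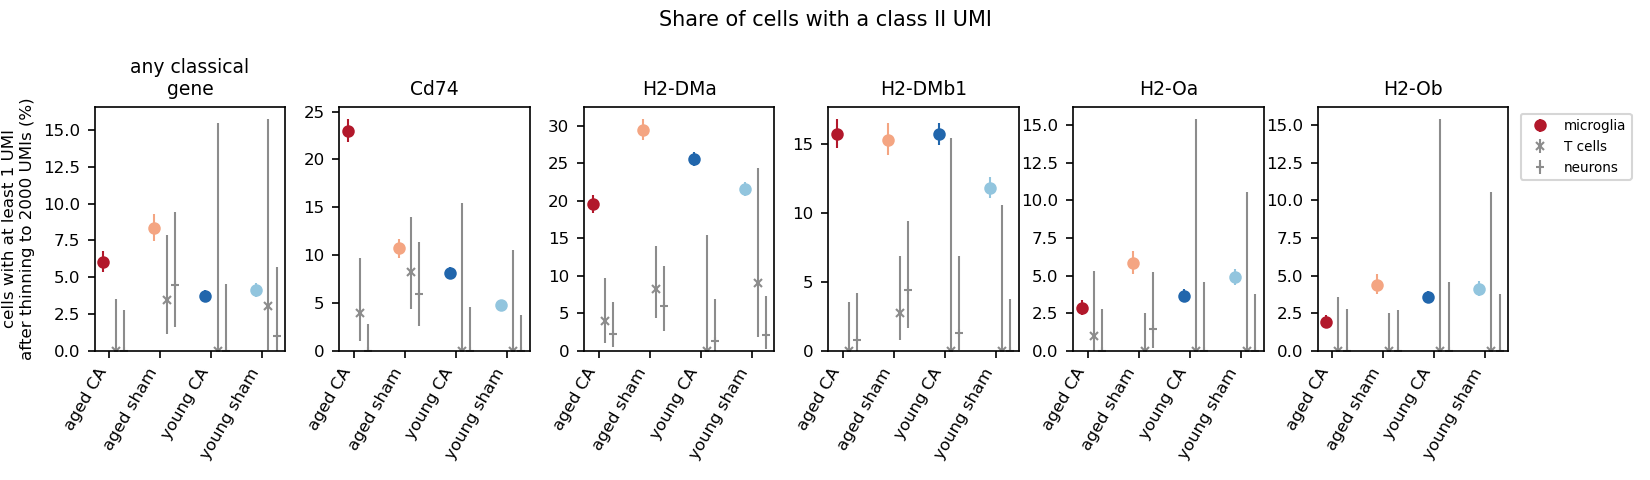
Share of cells with at least 1 UMI (vertical axis, percent) after thinning to 2000 UMIs, for 6 measures, in gate microglia (coloured circles) and in T cells and neurons (grey crosses and plus signs), by library along the horizontal axis. Bars are exact 95% intervals for counting error; Cd74 was found in 23.0% of aged CA microglia and 4.81% of young sham microglia.

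H2-DMa and H2-DMb1, which encode the paired chains of H2-M, were found in many microglia. H2-DMa was detected in 19.6%, 29.5%, 25.6% and 21.6% of thinned gate microglia in aged CA, aged sham, young CA and young sham, and H2-DMb1 in 15.7%, 15.3%, 15.7% and 11.8%. In T cells and neurons H2-DMa was found in at most 9.09% of cells in any library. Unthinned shares of microglia were 58.4%, 48.5%, 64.2% and 48.8% for H2-DMa and 53.0%, 32.1%, 50.3% and 34.4% for H2-DMb1. Cells with 3 or more of its UMIs held 7.68% to 10.5% of H2-DMa transcript, so it was spread thinly and not held by a few cells.

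The level of H2-DMa in microglia was 126 CPM (123 to 129) in aged CA, against 186 CPM (181 to 191) in aged sham, a ratio of 0.678. In young mice it was 161 CPM (159 to 164) in CA, against 139 CPM (136 to 142) in sham, a ratio of 1.16. H2-DMb1 was 90.8 CPM in aged CA and 88.9 CPM in aged sham, a ratio of 1.02 (0.975 to 1.07) whose interval includes 1, and 97.1 CPM in young CA, against 73.2 CPM in young sham, a ratio of 1.33. H2-DMb2 was low at 1.51 CPM (78 UMIs) in aged CA, against 7.95 CPM (258 UMIs) in aged sham, and 7.08 CPM (633 UMIs) in young CA, against 5.15 CPM (297 UMIs) in young sham. The ratios of H2-DMb2 were 0.190 and 1.38. H2-DMa and H2-DMb2 were thus lower in CA than in sham in aged mice and higher in young mice, and the difference between the ages was not tested. In microglia with 0 classical UMIs the H2-DMa ratios were 0.709 and 1.21, close to those of all microglia, unlike Cd74.

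H2-Oa and H2-Ob, the chains of the H2-M inhibitor, were lower in CA than in sham at both ages. H2-Oa was 15.9 CPM (14.9 to 17) in aged CA, against 29.3 CPM (27.4 to 31.2) in aged sham, and 18.8 CPM (17.9 to 19.7) in young CA, against 25.9 CPM (24.6 to 27.2) in young sham. H2-Ob was 10.4 CPM (9.55 to 11.3) in aged CA, against 24.6 CPM (22.9 to 26.4) in aged sham, and 16.5 CPM (15.7 to 17.4) in young CA, against 22 CPM (20.9 to 23.3) in young sham. The H2-Oa ratios were 0.544 in aged and 0.726 in young mice, and the H2-Ob ratios 0.424 and 0.748. In microglia with 0 classical UMIs they were 0.525 and 0.745 for H2-Oa and 0.411 and 0.754 for H2-Ob, and under the likelihood assignment 0.534 and 0.725 for H2-Oa and 0.417 and 0.757 for H2-Ob. Shares of thinned microglia with a UMI were 2.89%, 5.85%, 3.68% and 4.91% for H2-Oa and 1.93%, 4.39%, 3.57% and 4.14% for H2-Ob in aged CA, aged sham, young CA and young sham. Unthinned they were 14.9%, 13.5%, 15.7% and 15.2%, and 9.95%, 11.2%, 14.3% and 13%. In neurons H2-Oa was found in 2 of 135 aged sham cells, and H2-Ob in none of any library. T cells gave 1 of 102 for H2-Oa in aged CA and 0 for both genes otherwise, a floor that 145 aged sham cells set at 2.07% and 22 young CA cells at 13.6%.

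Ciita was rare in microglia. Gate microglia held 29, 169, 95 and 204 Ciita UMIs in aged CA, aged sham, young CA and young sham, or 0.560, 5.21, 1.06 and 3.54 CPM. CA was below sham at both ages, with ratios of 0.108 (0.0699 to 0.160) in aged and 0.30 (0.233 to 0.385) in young mice. Gate microglia held 20.1% of all Ciita UMIs of the library in aged CA and 49.7% in aged sham. By likelihood, microglia held 20.1% and 23.8%, so the size of the aged ratio depended on the assignment. After thinning, 0 of 4506 aged CA microglia had a Ciita UMI, which allows up to 0.0666% of cells with a UMI at this depth and sets no limit on cells that express the gene, against 31 of 3847 (0.806%) in aged sham. In young mice 11 of 8037 (0.137%) had one in CA and 41 of 6885 (0.595%) in sham. In microglia with 3 or more classical UMIs Ciita stood at 25.9, 170, 114 and 172 CPM, and in those with 0 classical UMIs at 0.186, 0.771, 0.303 and 0.898 CPM. The ratios in the cells with 0 were 0.242 (0.0981 to 0.547) and 0.338 (0.201 to 0.554), on 9 and 22 UMIs in aged CA and aged sham.

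**Figure D5:**
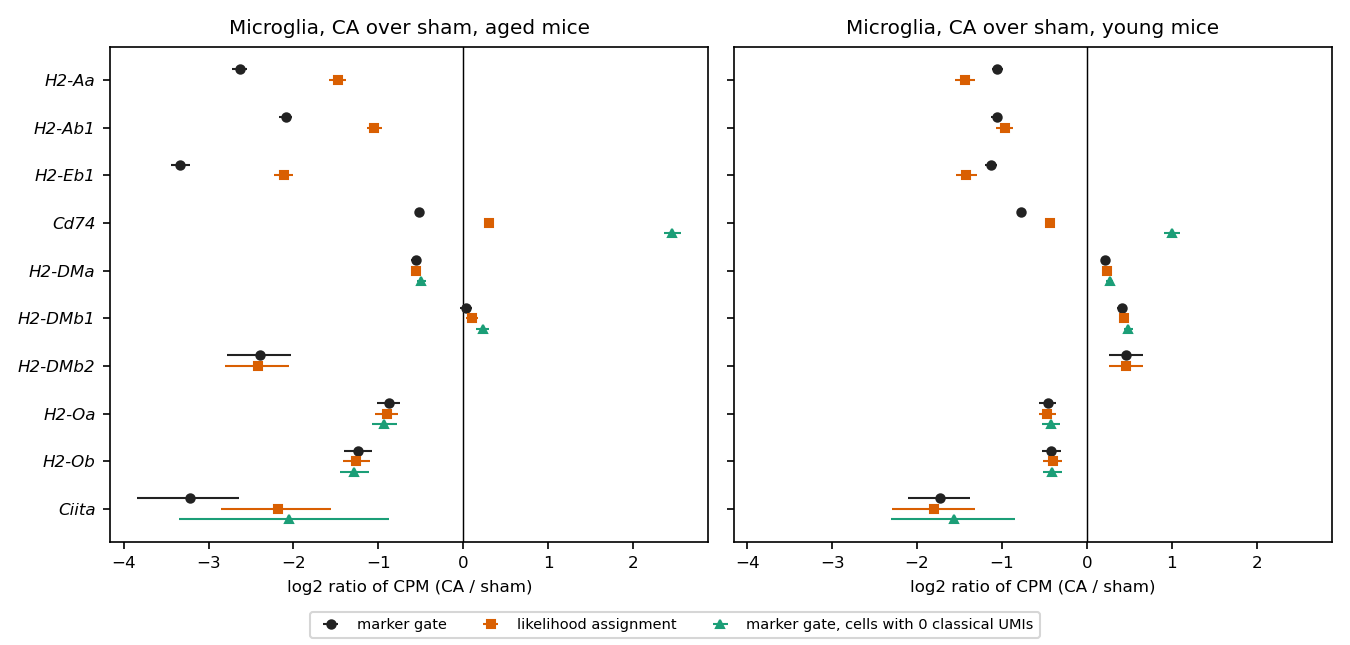
Log2 ratio of CPM in CA over sham (horizontal axis) for each gene in microglia, aged mice left and young mice right, by the marker gate, by the likelihood assignment and in gate microglia with 0 classical UMIs. Bars are 95% intervals for counting error; H2-Oa and H2-Ob lie near the same place in each, while Cd74 runs in aged mice from a ratio of 0.697 to 5.51.

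The genes that surround the family in its pathway were read from 8 lists in gate microglia. Over all lists, 31 of 37 genes had enough counts in aged CA against aged sham, of which 3 were at least 2-fold higher and 2 lower, with a median log2 ratio of 0.37. In young CA against young sham 30 had enough counts, of which 8 were higher and 0 lower, with a median of 0.17. Over all genes tested the medians were 0.03 and -0.07, 6.17% and 6.6% were higher, and 10.5% and 3.1% were lower. In aged sham against young sham, 0 of 29 passed 2-fold in either direction.

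Proteases and reductases that prepare class II peptides were higher in CA where they passed 2-fold. Ctsl, a cathepsin that trims the invariant chain in thymic epithelium, was 2241 CPM in aged CA, against 849 CPM in aged sham, and 2387 CPM in young CA, against 757 CPM in young sham. Ifi30, a lysosomal thiol reductase, was 470 CPM in aged CA, against 180 CPM in aged sham, and 603 CPM in young CA, against 145 CPM in young sham. Ctsb was 1.998 times sham in aged and 2.007 times in young mice, just at the limit, and only the young value passed it. Ctss, the main protease of the invariant chain in presenting cells, was 1.49 and 1.40 times sham.

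Among the proteins that bind X and Y boxes, Nfya was 0.446 and Creb1 0.455 times sham in aged mice, and 0.873 and 0.665 times sham in young mice. Rfx5, of the X box factor, was 0.796 and 0.841 times sham. Of the 7 genes in this list, 5 had enough counts in aged mice. In CA against sham, 2 of them were at least 2-fold lower and 0 higher, where 10.5% of all genes were lower, and the list's median log2 ratio was -0.29. In young mice 0 of 6 passed 2-fold, with a median of -0.22. Cd40, a costimulatory receptor, was 11.6 CPM in aged CA, against 1.45 CPM in aged sham, and 2.64 CPM in young CA, against 0.520 CPM in young sham. The young values were too low to be compared by the rule. Of the costimulation list (Cd40, Cd80 and Cd86), 1 of 3 genes was at least 2-fold higher in aged CA than in aged sham. Over all genes 6.17% were, and the list's median log2 ratio was 0.19. In young mice 0 of 2 passed 2-fold, with a median of -0.27. The class I genes B2m, H2-K1 and H2-D1, given for contrast, were 1.58, 1.24 and 1.49 times sham in aged mice. In young mice H2-K1 and H2-D1 were 1.98 and 2.11 times sham, and B2m was 1978 CPM in CA, against 989 CPM in sham. Mif, a ligand of Cd74, was 1.55 and 2.95 times sham. H2-Eb2, the neighbour of H2-Eb1, reached at most 0.168 CPM in microglia of any library.

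Across sums of at least 20 cells per class and library under the gate, 26 in all, the log2 classical sum set the pattern with which other genes were compared. The sums share libraries and depth, so these correlations are descriptions. Pearson's r was 0.96 for Cd74, 0.89 for Ciita and H2-DMa, 0.84 for H2-DMb1, 0.71 for H2-DMb2 and 0.70 for H2-Oa and H2-Ob. The non-members most like the classical chains were Gm20513, a noncoding gene that overlaps H2-Eb1 on the other strand (r = 0.87), A530010L16Rik (0.85), Cd40 (0.85), Rnase6 (0.83) and Cd83 (0.83). Under the likelihood assignment, with 31 sums, Gm20513 led again (0.89), followed by Kmo, Rnase6, Rassf4 and Snx2. Reads of H2-Eb1 and Gm20513 cannot be told apart here unless the counting used strand.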

How the data were processed

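The data were droplet-based single-cell libraries of CD45+ brain cells, 1 library per group, each from 3 pooled mice. Per the labels' protocols, mice were perfused, brains were dissociated mechanically, and leukocytes were enriched on Percoll and sorted, with 3′ libraries (10x, v3.1). Deposited were UMI counts per gene and cell barcode. Per the submitters' processing notes, Cell Ranger 7.1.0 and the mm10 genome were used. How multi-mapping or antisense reads were counted is not given in the sources used here. The depth ran from 44277472 to 115892682 UMIs per library.

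Cells under 500 UMIs, under 200 genes or over 10% mitochondrial UMIs were left out. The automatic threshold of Scrublet (scanpy 1.11.5) marked 0 doublets in every library, so the top scores were removed at 0.8% per 1000 cells (277, 455, 821 and 610 cells in aged CA, aged sham, young CA and young sham). The gate counted detected markers in 21 lists, which make up 12 classes, and required at least 3 markers and a lead of 0.2 in the share of markers detected. The likelihood assignment, added after the data were seen, used multinomial class profiles without the 10 genes and without mitochondrial, ribosomal and haemoglobin genes. The cells with 0 classical UMIs were also set apart after the data were seen.

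Within each class, a library's UMIs were added up and scaled to CPM, with exact Poisson intervals, exact conditional binomial intervals for ratios and exact Clopper-Pearson intervals for shares, all at 95% and for counting error only. Ratios against 0 used a floor of 3 UMIs over the class. Shares were compared after thinning each cell to 2000 UMIs. With 1 library per group, no p-value was computed. Genes with at least 10 CPM in 1 library of a comparison and 50 UMIs over both were compared, and a 2-fold ratio was called. The script was tested on simulated data. Members, gene lists and markers were chosen with earlier results of these data known. All 10 members were described by rule, and the 5 genes most like the classical sum were named. Alternatives covered scaling, filters, doublets, the gate, thinning and the assignment. Python 3.11.15, numpy 2.4.6, scipy 1.17.1 and pandas 2.3.3 were used.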

Additional observations from a re-analysis of the deposited data

Results flagged for a closer look

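In microglia named by the gate, H2-DMa and H2-DMb2 differed between CA and sham in opposite directions at the 2 ages, and the difference between ages was not tested. The CA to sham ratio of H2-DMa was 0.678 in aged mice and 1.16 in young mice. That of H2-DMb2 was 0.190 in aged mice and 1.38 in young mice. Depth per cell differed between the groups as well, with medians of 10628.5 UMIs in aged CA, 3503 in aged sham, 9371 in young CA and 5761 in young sham microglia, and its part in the result was not tested.

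Cells that the gate left unclassed, which no comparison by the gate uses, carried more Cd74 and classical transcript in CA than in sham. Their CA to sham ratio was 1.35 for Cd74 and 1.22 for the classical sum in aged mice, and 1.77 for Cd74 and 1.74 for the classical sum in young mice. Other members went the other way, with ratios of 0.546 (0.368 to 0.798) for Ciita and 0.766 (0.667 to 0.878) for H2-DMa in aged mice and 0.558 (0.349 to 0.887) for H2-Ob in young mice. The cells numbered 484 in aged CA, 1008 in aged sham, 386 in young CA and 276 in young sham.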

How the results depend on the processing

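No paired analysis was possible because each group was 1 library. The libraries are pools, so nothing separates a treatment, an age, a surgery day or a library, and the shallow aged sham library limits every aged comparison. Ratios below are in the order aged CA to aged sham, young CA to young sham, aged sham to young sham and aged CA to young CA, and where a ratio moved beyond its counting interval the cause was not tested.

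For the classical sum in gate microglia, trimmed-mean scaling gave 0.184, 0.513 and 1.96 for the first comparisons, and thinning to 2000 UMIs 0.118, 0.524, 2.90 and 0.654. Keeping the doublet candidates gave 0.182, 0.640 and, for aged CA to young CA, 0.590. A mitochondrial limit of 20% gave 0.174, 0.438, 1.95 and 0.773, a gate without the margin 0.229, 0.586 and 1.81, and the mean over cells 0.109, 0.511, 3.16 and 0.675. The likelihood assignment gave 0.362, 0.426, 2.52 and 2.14, the last of which reversed. In border-associated macrophages, the likelihood reversed the first 3 comparisons and turned the last, with 0.246, 0.549, 1.34 and 0.602, and the gate without the margin gave 0.741, 0.565, 1.22 and 1.60. Thinning gave at least 12.7, 0.994, at most 0.114 and 1.45 there, the bounds coming from the floor of 3 UMIs against 0 UMIs in aged sham, and the mean over cells 1.45 for aged CA to young CA; against aged sham, with 0 UMIs, it gave no value.

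Counts of members at 2-fold moved as follows. Trimmed-mean scaling left 1 higher in aged sham over young sham and 1 lower in young CA against young sham. Thinning and the likelihood each put 4 higher in aged sham over young sham, and the likelihood 3 higher and 0 lower in aged CA over young CA. Keeping doublet candidates, or no margin, left 0 higher in aged CA over young CA and 0 lower in young CA against young sham. The 20% limit left 0 lower in aged CA over young CA and 1 higher in aged sham over young sham, and no margin left 0 lower and 0 higher there.

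Among single members, these reversed: H2-DMb1 in aged CA to young CA under thinning (1.01), Cd74 in CA to sham in cells with 0 classical UMIs (5.51 aged, 2.002 young) and in aged CA to aged sham by likelihood (1.23), Ciita in aged sham to young sham in cells with 0 classical UMIs (0.858), and H2-Aa (2.47) and H2-Eb1 (1.69) in aged CA to young CA by likelihood. Of 464 member values under alternatives, 333 stayed, 124 moved and 7 reversed. The share of microglia with Cd74 was 21.3% in aged CA and 9.29% in aged sham by likelihood, and that with classical UMIs 7.30% in aged sham. Thinned to 1000 UMIs, Cd74 was found in 14.1% of aged CA, 4.79% of young CA and 3.43% of young sham microglia, and classical UMIs in 3.48%, 2.15% and 3.04%.

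Counts of genes at 2-fold, higher and lower, were 1054 and 2803, 1112 and 946, 1682 and 92, and 716 and 791 with a looser filter (1 CPM and 10 UMIs), and 1514 and 4994, 1655 and 2787, 3583 and 356, and 2263 and 1366 with none. Asking for 2 or 4 markers, asking for 1000 UMIs or leaving out haemoglobin-rich barcodes moved no classical sum beyond its counting interval in microglia. A pseudocount of 1 CPM was tried only on the counts of genes at 2-fold and not on the classical sum.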
